A study of Mus musculus with 16 samples.

Results

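Peaks of chromatin accessibility near 8 genes of tuft cells were examined in mouse small cell lung cancer (SCLC): *Pou2f3*, *Ascl2*, *Gfi1b*, *Trpm5*, *Avil*, *Dclk1*, *Chat* and *Ptgs1*. A peak was counted for a gene when, of all protein-coding start sites, one of that gene was nearest to the centre of the peak. By this rule 35 of the 80367 listed peaks belonged to 5 of the 8 genes. ATAC-seq, in which a transposase cuts and tags open DNA, had been run on sorted lung tumor cells. The tumors were of genotype *TKO*;*Hes1*GFP/+: floxed alleles of *p130*, *p53* and *Rb* had been removed with Cre, carried into the airway by an adenovirus under the CMV promoter, which is not specific to a cell type. All mice carried a GFP reporter of *Hes1*, a target of Notch signalling. Both groups had passed the same gate, negative for CD45, CD31 and TER-119 and positive for CD24. GFPhigh cells (Hes1-GFP positive) were the non-neuroendocrine (non-NE) cells and GFPneg cells (Hes1-GFP negative) the neuroendocrine (NE) cells. Tumors were pooled within each of 3 mice, 1 of which gave 2 technical replicates, so that each group held 4 libraries, each run on 2 lanes.

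The deposited data are lists of peaks that differed between the groups, called here opened (more accessible in GFPhigh cells) and closed (less accessible). They hold no value per library, so replicate spread and depth per library are unknown here, no test was run, and intervals on shares cover counting error only. A gene with no listed peak may have unchanged peaks or none. The strength of a peak is given as the authors' mean normalised count over all libraries of both groups.

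Tuft cells are chemosensory epithelial cells of the airway, gut and other organs. The POU-domain factor *Pou2f3* is needed for their formation, and in human SCLC it marks a class of tumors with low NE gene expression. Tuft cells signal through a taste-like cascade that ends in the cation channel *Trpm5*, make acetylcholine with *Chat* and prostaglandins with *Ptgs1*, and carry a tuft of microvilli with the actin-binding protein *Avil*.

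The sequences below are of the promoter peaks nearest to a start site, and of 3 further peaks chosen after their values were seen: the opened *Dclk1* peak before its first start site, the 1 *Pou2f3* peak, and the distal *Ptgs1* peak of highest count. All are from GRCm38 (mm10), plus strand, 5′ to 3′, with annotated exons left out and at most 300 bases shown, except 30 bases of the *Pou2f3* peak, which lies in an exon of *Oaf*. Capitals mark matches to the motifs described further on. The part shown of the *Ptgs1* promoter peak lies downstream of the start site, in an intron.
*Pou2f3*, opened, chr9:43221836-43221865: catttctgaCACTAGGTGGCAGcacgggac
*Gfi1b* promoter, opened, chr2:28622631-28622771: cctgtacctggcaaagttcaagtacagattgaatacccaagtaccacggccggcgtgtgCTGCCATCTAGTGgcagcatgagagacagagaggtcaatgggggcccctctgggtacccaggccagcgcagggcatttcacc
*Avil* promoter, closed, chr10:127002820-127003119: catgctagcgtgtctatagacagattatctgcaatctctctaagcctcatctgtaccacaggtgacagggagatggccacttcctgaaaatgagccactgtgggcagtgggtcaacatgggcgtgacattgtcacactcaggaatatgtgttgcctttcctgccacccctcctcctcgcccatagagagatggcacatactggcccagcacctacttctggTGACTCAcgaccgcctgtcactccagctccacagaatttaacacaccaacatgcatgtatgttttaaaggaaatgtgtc
*Dclk1* first promoter, opened, chr3:55241862-55242161: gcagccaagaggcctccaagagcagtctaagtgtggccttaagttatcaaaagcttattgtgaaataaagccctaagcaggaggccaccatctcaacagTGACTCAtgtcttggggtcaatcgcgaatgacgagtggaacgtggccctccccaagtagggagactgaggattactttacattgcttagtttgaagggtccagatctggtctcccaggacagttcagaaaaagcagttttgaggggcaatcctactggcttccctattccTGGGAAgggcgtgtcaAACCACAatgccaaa
*Dclk1* internal promoter, closed, chr3:55461567-55461727: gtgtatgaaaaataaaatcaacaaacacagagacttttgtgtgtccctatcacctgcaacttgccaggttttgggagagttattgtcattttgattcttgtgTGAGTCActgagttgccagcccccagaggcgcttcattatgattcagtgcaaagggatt
*Ptgs1* promoter, opened, chr2:36230570-36230667: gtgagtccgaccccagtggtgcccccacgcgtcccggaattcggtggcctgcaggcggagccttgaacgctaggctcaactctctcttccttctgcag
*Ptgs1* distal peak, opened, chr2:36214083-36214330: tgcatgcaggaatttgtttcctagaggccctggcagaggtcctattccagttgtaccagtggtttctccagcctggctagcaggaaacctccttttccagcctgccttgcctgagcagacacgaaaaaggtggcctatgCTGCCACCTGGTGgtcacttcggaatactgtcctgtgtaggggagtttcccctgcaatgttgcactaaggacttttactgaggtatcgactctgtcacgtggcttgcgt

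Of the 35 peaks, 25 were opened and 10 closed in GFPhigh cells, a share opened of 71.4% (95% Wilson interval 55.0 to 83.7), beside 50.8% of all listed peaks. *Dclk1* and *Ptgs1* held 29 of the 35, of which 22 were opened, and the 6 peaks of *Pou2f3*, *Gfi1b* and *Avil* were 3 opened and 3 closed. *Trpm5*, *Ascl2* and *Chat* had no listed peak, as had 33.5% of the 21924 protein-coding genes. Peaks of 1 gene are neighbours on 1 chromosome and are not independent of each other. The share rested on the rule of assignment. When peaks were instead counted in the gene body with 10 kb on either side, 19 of 37 were opened, 51.4%. The share of all listed peaks was not counted by this rule, so 50.8% is not its background. With the start site of a gene of any type as the nearest, 17 peaks were left to the 8 genes, 14 of them opened.

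Promoter peaks were those with a centre within 1 kb of a start site of their gene. Of 7 promoter peaks of the tuft cell genes 5 were opened, 71.4% (Wilson interval 35.9 to 91.8), where 74.3% of all listed promoter peaks were opened. An opened promoter peak was found at 3 of the 8 genes (*Gfi1b*, *Dclk1* and *Ptgs1*), beside 26.6% of all protein-coding genes, and a closed one at 2 (*Avil* and *Dclk1*), beside 8.43%. Farther than 1 kb from a start site, 20 of 28 peaks were opened, 71.4% (52.9 to 84.7), beside 47.3% of all listed peaks at that distance. The 15 peaks from 1 to 20 kb were 13 opened and 2 closed, while the 13 beyond 20 kb were 7 opened and 6 closed. Over all listed peaks 57.5% were opened from 1 to 20 kb and 41.9% beyond.

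Among the transcription factors, *Pou2f3* (chr9:43123939-43210369, minus strand) had no listed peak at its promoter or in its gene body of 86.4 kb. Its 1 peak was opened and lay at chr9:43221779-43221921, 11481 bp upstream of the first start site, within exon 4 of 4 of the neighbouring gene *Oaf*. The peak was 143 bp wide with an authors' mean normalised count of 16.8, which placed it at percentile 22.1 of the opened peaks. This single assignment did not hold under other annotations: with every transcript of the comprehensive annotation the peak was nearest to *Oaf*, and with genes of any type to the pseudogene *Rpl26-ps6*. Within 60 kb of the gene another 9 listed peaks were assigned to other genes, 7 opened and 2 closed.

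*Ascl2* (chr7:142966829-142969264, minus strand), a basic helix-loop-helix factor of tuft and intestinal stem cells, had no listed peak. The listed peak nearest to its start sites was opened, lay 28657 bp away, was assigned to *Tspan32* and had a mean count of 19.9. *Gfi1b* (chr2:28609450-28621982, minus strand), a transcriptional repressor of tuft cells that is also known from the erythroid and megakaryocyte lineages, had 3 peaks. Its promoter peak (chr2:28622631-28622771) was opened, 719 bp upstream of the first start site, with a mean count of 11.4, at percentile 11.5 of the opened peaks. A second opened peak lay 8368 bp upstream with a mean count of 12.5. The peak of highest mean count, 19.6, was closed and lay in the last exon (chr2:28609901-28610164), 11913 bp downstream of a start site. All 3 *Gfi1b* peaks and the *Pou2f3* peak were thus below the medians of the opened (40.7) and closed (25.8) peaks of the whole series.

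The channel gene *Trpm5* (chr7:143069153-143094642, minus strand) had no listed peak in its body, at its promoter or by nearest start site. The listed peak nearest to its start site was opened, 10786 bp away, had a mean count of 20.6 and was assigned to *Kcnq1*. Within 60 kb of *Trpm5* there were 10 listed peaks of other genes, 9 opened and 1 closed. *Ascl2* and *Trpm5* lie 99.9 kb apart on the same chromosome, and no listed peak lay in either gene.

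*Chat* (chr14:32408203-32465989, minus strand), the enzyme that makes acetylcholine, was assigned no peak because the gene of the vesicular acetylcholine transporter, *Slc18a3*, starts inside it, 1107 bp from the start site of *Chat*. The body of *Chat* held 4 listed peaks, all of them closed and all nearest to *Slc18a3*. The 2 nearest to the *Chat* start site lay 1121 bp and 1637 bp into the gene, with mean counts of 27.4 and 12.7. The other 2 had mean counts of 59.7 and 6.18. All 11 listed peaks in *Chat* and within 60 kb of it were closed. With the comprehensive annotation 2 closed peaks were assigned to *Chat* itself.

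**Figure D1:**
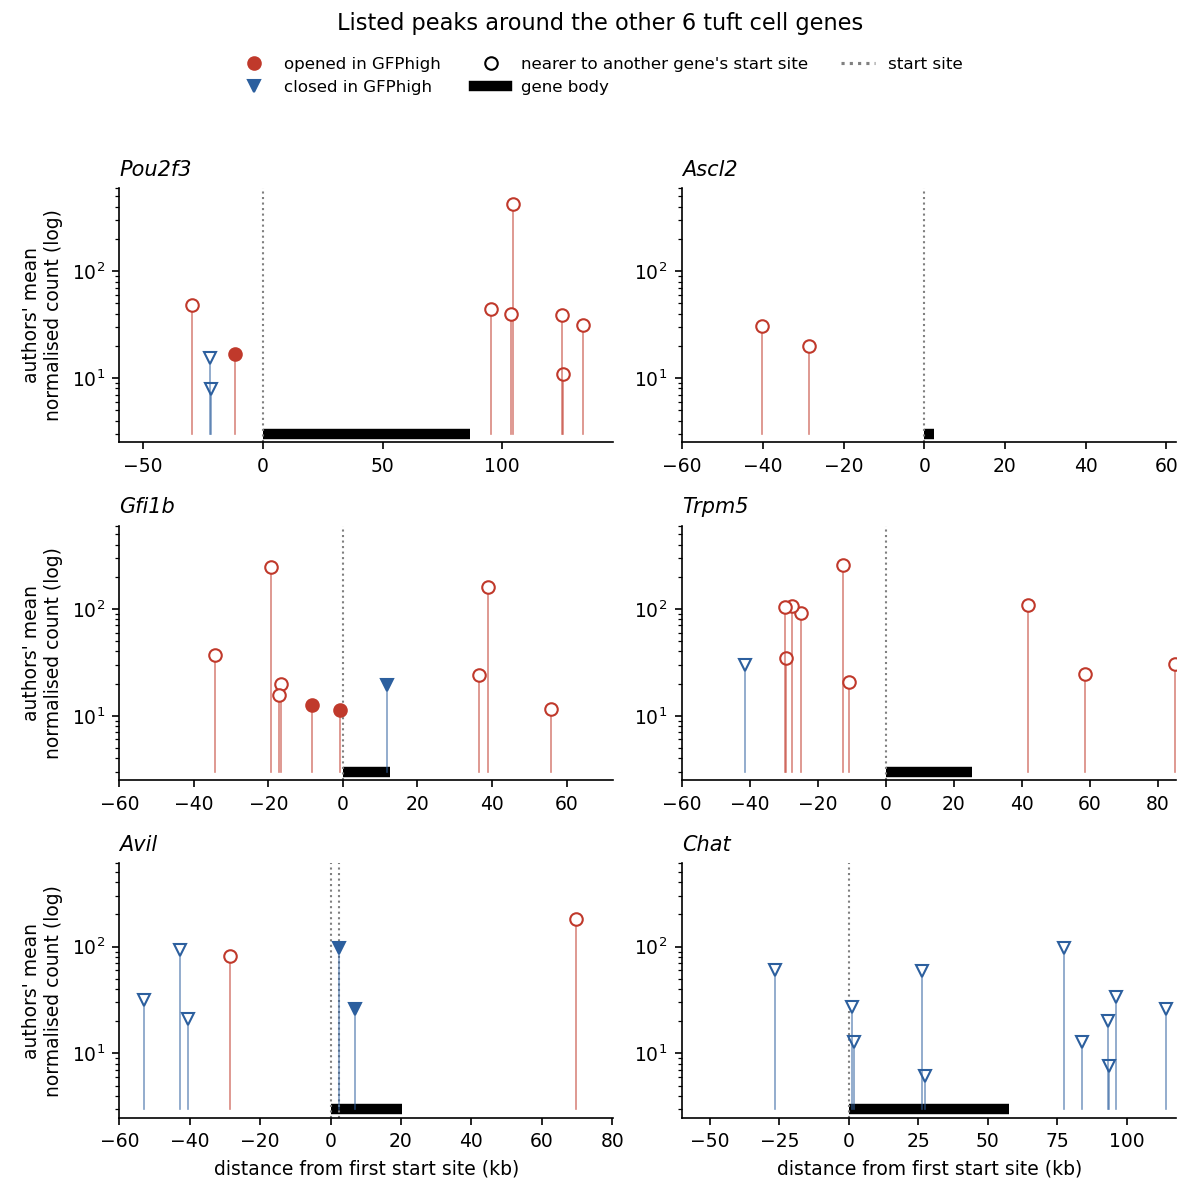
Listed peaks around *Pou2f3*, *Ascl2*, *Gfi1b*, *Trpm5*, *Avil* and *Chat*, by distance from the first start site along the gene (kb) and authors' mean normalised count (log axis); red circles are opened and blue triangles closed peaks, hollow marks are peaks nearer to the start site of another gene, black bars are gene bodies and dotted lines start sites. *Pou2f3*, *Ascl2* and *Trpm5* have no mark over their gene body, and all 11 marks in the *Chat* panel are closed peaks.

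*Avil* (chr10:127000709-127020994, plus strand) encodes advillin, an actin regulator of the villin family. Both of its listed peaks were closed. The promoter peak (chr10:127002805-127003250) lay 108 bp upstream of the second of the 2 annotated start sites, with a mean count of 97.4, at percentile 90.4 of all closed peaks. The other, in exon 5 of 20, lay 4434 bp downstream with a mean count of 26.0. *Avil* was the only 1 of the 5 genes with listed peaks that had no opened peak.

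*Dclk1* (chr3:55242364-55539068, plus strand) encodes a microtubule-associated kinase and is a widely used tuft cell marker that neurons also express. It had 14 listed peaks, 11 opened and 3 closed, and 6.31% of protein-coding genes had as many or more. The gene is 296.7 kb long and has annotated start sites in a pair of regions 219.2 kb apart: 3 transcripts start at the first and 7, which lack the upstream exons, at the internal one. These promoters were listed in opposite directions. At the first promoter 2 peaks were opened, one ending before the start site (chr3:55241724-55242299, mean count 152) and one over exon 1 (chr3:55242333-55243005, mean count 177, the highest of all 35 peaks). At the internal promoter the peak was closed (chr3:55461567-55462117, 57 bp upstream of the nearest start site), with a mean count of 153, at percentile 95.8 of all closed peaks. Opened and closed promoter peaks in the same gene were found for 163 of all protein-coding genes, 0.743%.

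Of the 10 *Dclk1* peaks between these promoters 8 were opened. The strongest lay 9037 bp upstream of the internal promoter (chr3:55452370-55453012) with a mean count of 133, next to a weaker opened peak with a mean count of 27.2. Both other closed peaks lay in introns, 50596 bp and 109356 bp downstream of the first promoter, with mean counts of 27.4 and 95.3. One opened peak lay outside the gene, 29845 bp upstream, with a mean count of 105. The body of *Dclk1* held 4 further peaks near its 3′ end, 3 closed and 1 opened, which were nearest to the start of the overlapping gene model *Gm21954*. They count toward *Dclk1* under the comprehensive annotation, in which the gene had 27 listed peaks, 15 opened and 12 closed, and the 8 genes together had 28 opened of 48, 58.3%.

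*Ptgs1* (chr2:36230426-36252272, plus strand) encodes cyclooxygenase 1, which makes prostaglandins in tuft cells and thromboxane precursors in platelets. It had 15 listed peaks, the most of the 8 genes, 11 opened and 4 closed, and 5.61% of protein-coding genes had as many or more. The promoter peak at the start site (chr2:36230365-36230807) was opened with a mean count of 120, the highest of this gene. A second opened promoter peak (chr2:36231222-36231294) was narrow, at 73 bp, with a mean count of 10.4. All 4 listed peaks in the gene body were opened. Upstream, 4 opened peaks fell within 1418 bp (chr2:36216579-36217996) over the start of the long noncoding RNA gene *Gm13431*, with mean counts from 13.6 to 89.1, and the distal peak of highest mean count, 101.5, lay 16220 bp from the start site. The 4 closed peaks lay 31625, 34891 and 46015 bp upstream and 48567 bp downstream, with mean counts from 5.75 to 43.1. Opened peaks were also listed at similar distances, 29440 bp upstream and 31720 bp downstream, with mean counts of 33.5 and 21.4. With genes of any type the upstream opened cluster was assigned to *Gm13431*, and 4 opened and no closed peaks were left to *Ptgs1*.

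**Figure D2:**
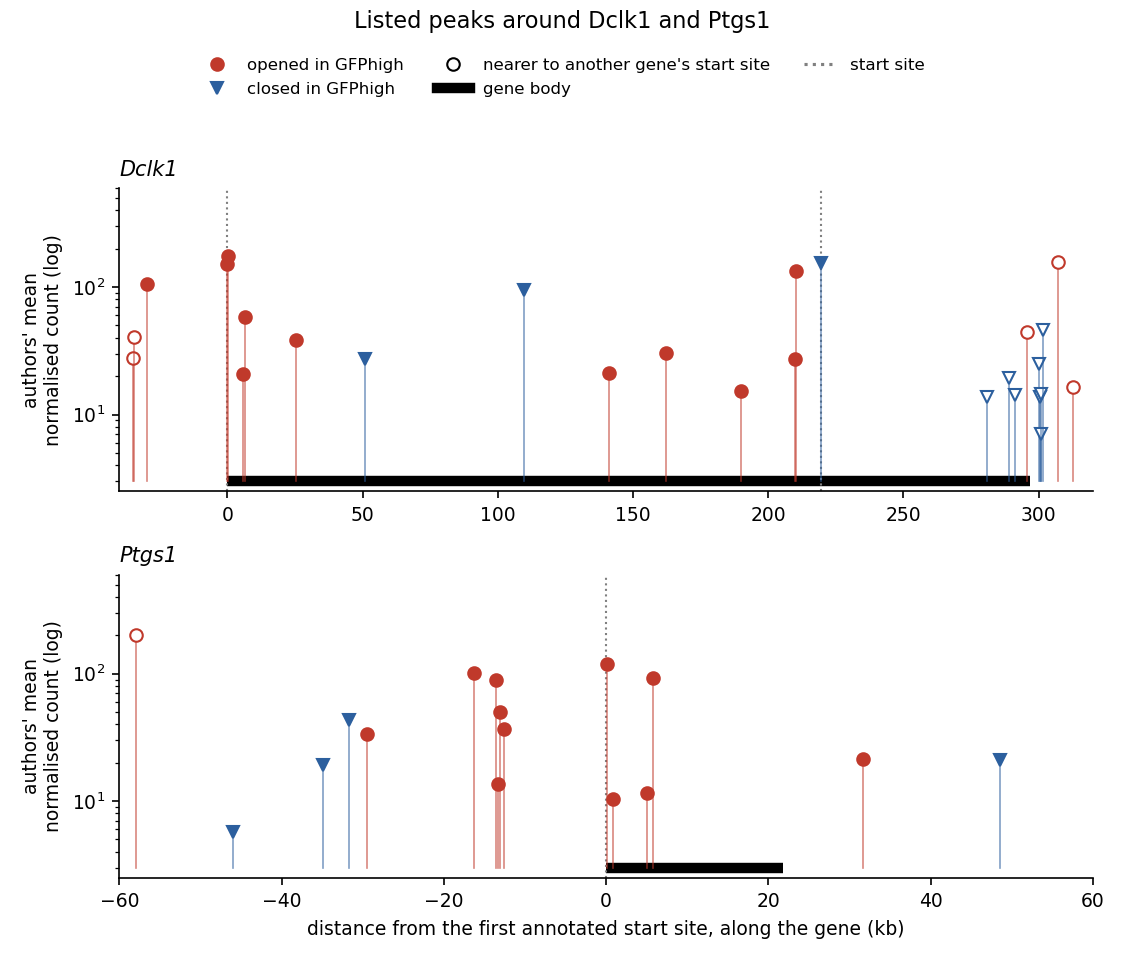
Listed peaks around *Dclk1* (top) and *Ptgs1* (bottom), by distance from the first start site along the gene (kb) and authors' mean normalised count (log axis); marks as red circles for opened and blue triangles for closed peaks, hollow where another gene's start site was nearer, with gene bodies as black bars and dotted lines at the start sites, the internal one of *Dclk1* included. The first *Dclk1* promoter carries 2 opened peaks with mean counts of 152 and 177 and the internal one a closed peak of 153, while the 4 peaks in the body of *Ptgs1* are all opened.

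The peaks of the tuft cell genes were close in width and strength to the listed peaks at large. Their median width was 277 bp (73 to 673), beside 269 bp for all listed peaks. The median authors' mean normalised count was 33.5 for the 25 opened peaks, beside 40.7 for all opened peaks, and 26.7 for the 10 closed peaks, beside 25.8 for all closed ones. The 7 promoter peaks had a median of 120, beside 111 for all listed promoter peaks. By position 15 of the 35 peaks were in introns, 8 between genes, 7 at promoters and 5 in other exons. That is 20% at promoters and 14.3% in exons, beside 12.9% and 4.42% of all listed peaks.

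**Figure D3:**
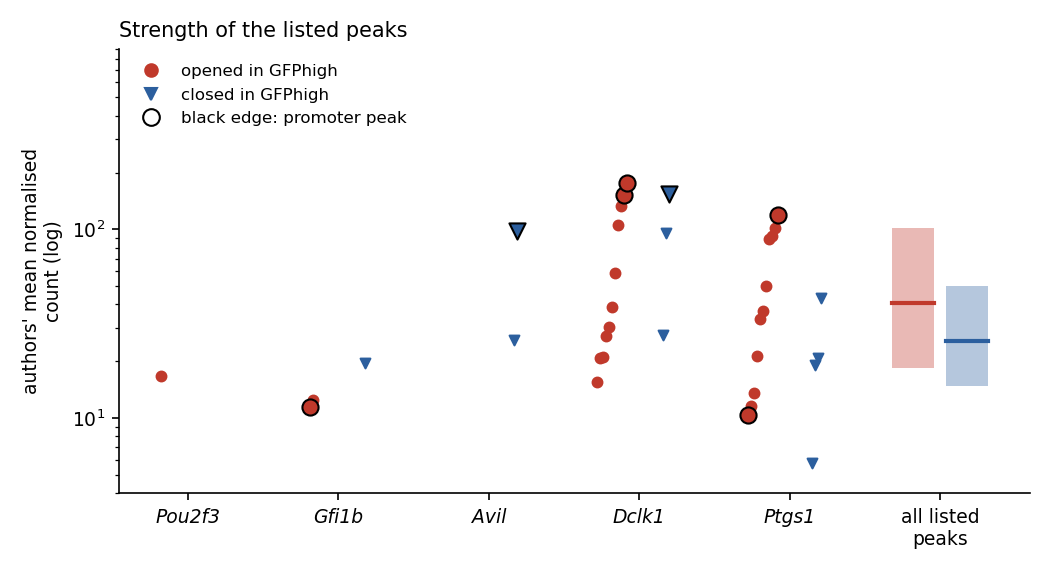
Authors' mean normalised count (log axis) of each listed peak of the 5 genes with any, opened (red circles) or closed (blue triangles), with promoter peaks larger and edged in black; boxes at the right span the quartiles of all opened and all closed listed peaks, with lines at their medians of 40.7 and 25.8. The *Pou2f3* and *Gfi1b* marks all lie at or under 19.6, and the promoter marks of *Dclk1* all lie above 150.

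Short motifs were searched as exact letters on either strand in the 200 bp around the centre of every listed peak. This window ran past the edges of the 10 of the 35 peaks that were narrower, so counts over the peak's own width are given too. A match is a description of the sequence and not a bound site. The octamer of POU factors such as POU2F3, ATGCAAAT, was in none of the 35 peaks, beside 1.12% of all opened and 1.54% of all closed peaks, and it was also absent from their own widths. The TEAD motif CATTCC was in 7 of the 25 opened peaks, 28%, beside 18.1% of all opened peaks, and in 2 of the 10 closed peaks, 20%, beside 8.78%. Within the peaks' own widths it was in 7 opened peaks, 28%, beside 25.4%, and in 3 closed peaks, 30%, beside 12.0%; the matches of the *Gfi1b* promoter and of an 83 bp *Ptgs1* peak lay outside the peak. The AP-1 motif (TGACTCA or TGAGTCA) was in 3 opened peaks, 12.0%, beside 8.45%, and in 2 closed peaks, 20%, beside 21.2%. Over whole peaks these counts were 4 opened, 16%, beside 12.0%, and 4 closed, 40%, beside 24.1%. It stood in the closed *Avil* promoter peak, in the opened first promoter of *Dclk1* and, outside the central part, in the closed internal promoter peak, as printed above. The RBPJ letters TGGGAA, read by the DNA-binding partner of Notch, were in 5 opened peaks, 20%, beside 20.6%, and in 4 closed peaks, 40.0%, beside 16.3%. Over whole peaks they were in 7 opened, beside 30.6%, and 4 closed, beside 21.5%.

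The FOX letters (TGTTTAC or TATTTAC) were found around the centre of 4 opened and 2 closed peaks, beside 10.6% of all opened and 15.8% of all closed peaks, and within 5 opened and 1 closed peak, beside 14.4% and 18.4%. The E-box CAGCTG of ASCL and NEUROD factors was in no opened peak, beside 12.0%, and in 2 closed peaks, beside 22.6%; over whole peaks it was in 1 opened and 3 closed, beside 19.8% and 27.6%. NKX2 letters (CACTTGA or CACTCAA) were in 1 opened and 1 closed peak, beside 10.3% and 8.29%, and over whole peaks in 2 and 1, beside 14.5% and 10.5%. ETS (CCGGAAG) and RUNX (TGTGGTT) letters were in none of the 35 around the centre, beside 3.20% and 8.35% of all opened and 1.54% and 3.58% of all closed peaks. Off the centre, RUNX letters stood in the opened first promoter peak of *Dclk1* and ETS letters in its closed internal promoter peak, 1 peak each. RBPJ and TEAD letters overlapped in 1 peak.

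In 3 of the printed sequences a longer run was noticed after they had been read: letters of the core of the motif of CTCF, a factor of insulators and chromatin loop anchors (the capitals of 13 letters above). They stood in the *Pou2f3* peak, in the *Gfi1b* promoter peak and in the distal *Ptgs1* peak 16220 bp upstream, all opened, and in no other of the 35 peaks. Over the whole series 1.19% of opened and 1.01% of closed peaks held these letters in the central part. The letters were chosen on these sequences, so the count of 3 is a description only.

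For comparison, 55 other genes known from tuft cells were counted in the same way. Of these 14 had no listed peak, beside 33.5% of all protein-coding genes. The other 41 were 12 with only opened peaks, 8 with only closed peaks and 21 with both, and 226 of their 421 peaks were opened, 53.7% (48.9 to 58.4), beside 50.8% of all listed peaks. When peaks were counted by gene body the share of this wider list was 61.7% (137 of 222), above the 51.4% of the 8 genes, so the order of the lists depended on the rule of assignment. An opened promoter peak was found at 15 of the 55 genes, 27.3%, and a closed one at 6, 10.9%, beside 26.6% and 8.43% of all protein-coding genes.

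By role, eicosanoid enzymes together with cytokines and their receptors had 20 of 28 peaks opened, 71.4% (52.9 to 84.7), beside 50.8% of all listed peaks. *Ptges*, a prostaglandin E synthase, had 6 opened peaks of 6 and *Pla2g4a*, the phospholipase that frees arachidonic acid, 7 of 7, each with the promoter included. The cytokine *Il25* and its receptor *Il17rb* had 1 opened promoter peak each, with mean counts of 37.1 and 249. In contrast, the prostaglandin D synthase *Hpgds* had 1 closed promoter peak with a mean count of 51.8. *Alox5ap*, needed for leukotriene synthesis, had the most peaks of this role, with 2 opened of 8.

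Transcription factors and coactivators had 119 of 195 peaks opened, 61.0% (54.0 to 67.6), beside 50.8% of all listed peaks. Most belonged to *Sox9* (61 opened of 80), *Sox4* (23 of 53) and *Runx1* (32 of 43), broadly expressed factors that each had opened promoter peaks. *Etv1* went the other way, with 1 opened of 16 and no listed promoter peak. The coactivators *Pou2af2* and *Pou2af3* of *Pou2f3* had no match in the annotation and were not analysed here. Genes of taste and ion signalling had 30 of 61 opened, 49.2% (37.1 to 61.4), beside the same 50.8%. The inositol trisphosphate receptors *Itpr2* (9 opened of 15, the most of this role) and *Itpr3* (5 of 5) had opened promoters, and the G protein subunit *Gnb3* had 2 closed promoter peaks with mean counts of 20.8 and 22.6. Of these 17 genes 8 had no listed peak, beside 33.5% of all protein-coding genes.

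Cytoskeletal and surface genes had 57 of 137 opened, 41.6% (33.7 to 50.0), beside 50.8% of all listed peaks. *Vil1*, which encodes villin, had 8 peaks, all closed, 3 of them at promoters, as both peaks of its relative *Avil* were. *Kctd12*, a subunit of GABA-B receptor complexes, had 24 peaks, all closed, with a promoter peak of mean count 942 at percentile 99.99 of the closed peaks. The kinase *Matk* had 2 closed promoter peaks. Opened promoter peaks were listed at genes that included the keratins *Krt8* and *Krt18*, *Anxa4*, *Lrmp* and *Espn*, the last of which also had a closed one. *Nebl* had the most peaks of this role, 9 opened of 28. *Cd24a*, whose product was part of the sorting gate for both groups, had 9 opened of 21.

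Lists of other cells were counted alike, to be set beside the 50.8% opened of all listed peaks. Genes of NE cells had 9 of 108 peaks opened, 8.33% (4.45 to 15.1). None of their 18 promoter peaks was opened, beside 74.3% of all listed promoter peaks. Club cell genes had 56 of 68 opened, 82.4% (71.6 to 89.6), ionocyte genes 26 of 33, 78.8% (62.2 to 89.3), and multiciliated cell genes 24 of 79, 30.4% (21.3 to 41.2). A few genes carried some of these counts. *Chga* held 8 of the 9 opened NE peaks. *Rfx3*, *Cdhr3* and *Dnah5* held 15, 14 and 13 of the 55 closed peaks of multiciliated cell genes. Of the multiciliated cell genes 4 had only opened and 1 only closed peaks. *Atp6v0d2* and *Atp6v1c2* held 9 and 8 of the 26 opened ionocyte peaks, while 2 ionocyte genes had only closed peaks. An opened promoter peak was found at 1 of 7 ionocyte genes, 14.3%, and at 10 of 12 club cell genes, 83.3%. Of all protein-coding genes 26.6% had one.

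Some of the 8 genes are also active in blood cells, so markers of blood, endothelial and stromal cells were counted; the gate against CD45, CD31 and TER-119 was meant to remove most leukocytes, endothelial and erythroid cells. Beside 50.8% of all listed peaks, leukocyte markers had 15 of 22 peaks opened, mast cell and basophil markers 9 of 12, and megakaryocyte and erythroid markers 11 of 12, 91.7% (64.6 to 98.5). Single genes carried the first 2 counts, with 11 of the 15 at *Ptprc* and 7 of the 9 at *Gata2*. The leukocyte share of 68.2% turned to 44.4% (4 of 9) within 100 kb of a start site, beside 55.7% of all peaks there, and to 46.2% (6 of 13) by gene body. No promoter peak was listed for the 10 leukocyte or the 10 megakaryocyte and erythroid markers, while 2 of the 8 mast cell and basophil markers had opened ones, beside 26.6% of all protein-coding genes. Of the leukocyte, mast cell and megakaryocyte lists 5, 4 and 4 genes in turn had no listed peak, beside 33.5% of all genes. Endothelial markers had 25 of 68 opened, 36.8%, with 23 of the 43 closed peaks at *Cdh5*, but 62.5% within 100 kb and 68.2% by gene body. Fibroblast markers had 17 of 33, 51.5%, but 33.3% (2 of 6) with start sites of genes of any type, where endothelial markers had 53.3%. The part of such cells in the *Gfi1b* and *Ptgs1* peaks was not tested.

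**Figure D4:**
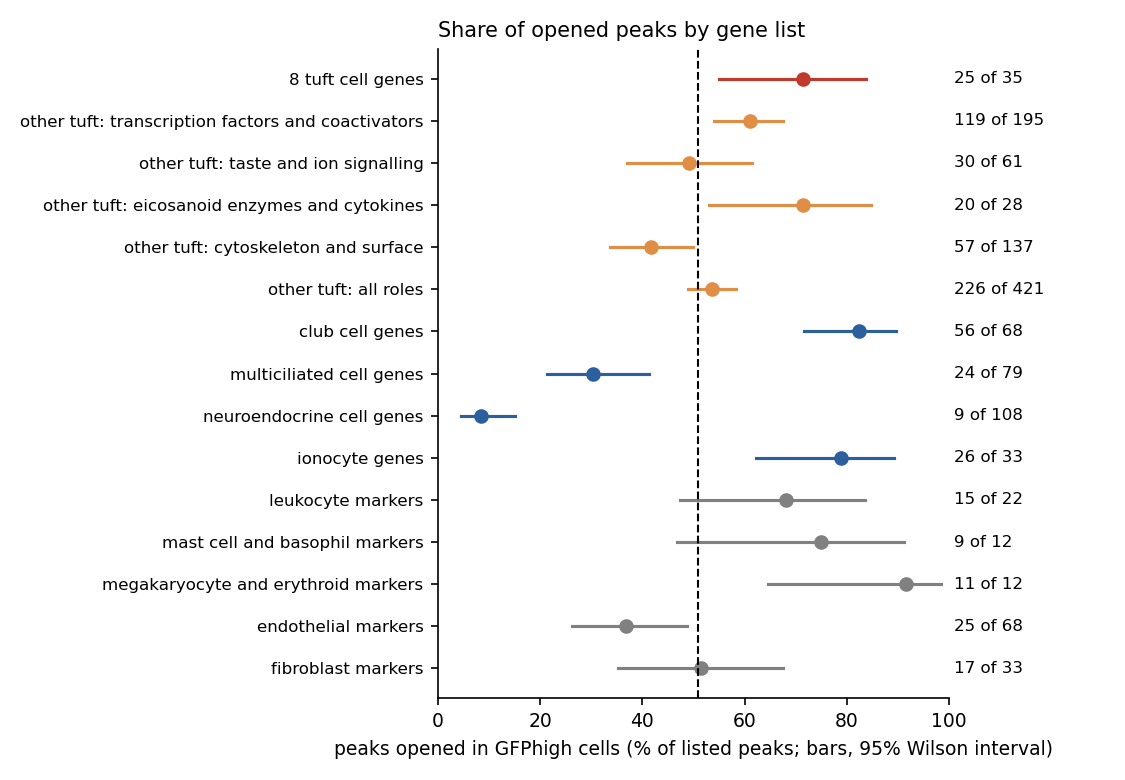
Share of listed peaks that were opened in GFPhigh cells (%, points) with 95% Wilson intervals (bars) for the 8 tuft cell genes (red), other tuft cell genes by role (orange), genes of other lung epithelial cells (blue) and markers of blood, endothelial and stromal cells (grey); counts stand at the right and the dashed line marks the 50.8% of all listed peaks. The 8 tuft cell genes, at 71.4%, lie right of the line, and the wider tuft cell list, at 53.7%, has an interval that crosses it.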

How the data were processed

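ATAC-seq was run on GFPhigh and GFPneg tumor cells. Per the study's methods and the submitters' processing notes, the authors aligned reads to mm10 with Bowtie2 2.3.4.1, called narrow peaks with MACS2, merged the peaks of all samples, counted reads per merged peak and compared the groups with DESeq2 1.28.1. The 2 deposited lists hold peaks past the authors' limits on fold change and adjusted p. Of their columns the position and the mean normalised count were used; the latter is a signal per peak, which the authors made by scaling counts for depth and averaging over all libraries of both groups, so it does not separate the groups and carries no error. The other deposited columns hold the authors' log2 fold change, its standard error, test statistic, p-value and adjusted p, and were not used. Whether lanes were summed is not given in the sources used here.

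To each deposited start 1 was added, so that the printed positions are 1-based. Each peak was assigned by its centre to the nearest start site of a protein-coding gene in the GENCODE M21 basic annotation of GRCm38, and class was taken from all annotated genes. Assignment was tested on simulated data against an exhaustive search, and the motif search on planted AP-1 letters only. Wilson 95% intervals were computed with scipy 1.17.1 under Python 3.11.15. The 8 genes, the gene lists and 9 of the motifs were chosen with earlier results of these data known; the CTCF letters were added after sequences were read. Named were all 8 genes, other tuft cell genes with a promoter peak or the most peaks of their role, genes that take a peak inside a member's body, and for each gene its promoter peaks, its peak of highest mean count and the peak nearest to a start site; other genes and peaks named were chosen after their values were seen. One item of the wider lists is not reported here by name. Of 153 listed names, 150 were found directly and 1 by an older symbol (*Irag2* as *Lrmp*). Alternatives were other rules of assignment, merged peaks, a minimum mean count, another promoter distance, the whole peak for motifs and leaving out each gene.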

Additional observations from a re-analysis of the deposited data

How the results depend on the processing

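No paired analysis was possible because the deposited lists hold no values per sample and the results come from no test. Of the alternatives, assignment to the start site of a gene of any type moved the largest number of results. The share opened of the 8 genes was not among them (82.4%, 14 of 17), and it moved past its interval only by gene body. With genes of any type, 17 peaks were left to the 8 genes, with a median authors' mean normalised count of 58.7. The share opened was then 61.5% for the other tuft cell genes, 95.2% for ionocyte genes, 53.3% for endothelial and 33.3% for fibroblast markers. Fewer peaks were nearest to a protein-coding gene by construction. Within 100 kb of the start site the share was 92.6% for ionocyte genes, 44.4% for leukocyte and 62.5% for endothelial markers. Counting by gene body with 10 kb on either side gave 51.4% for the 8 genes, 61.7% for the other tuft cell genes, 46.2% for leukocyte, 100% for mast cell and basophil and 68.2% for endothelial markers. These shares have no background of their own, because all listed peaks were not counted by that rule. A minimum mean count of 20 gave a median of 49.9 for the 8 genes and 61.2% for the other tuft cell genes. Over all listed peaks the share was 55.7% within 100 kb and 55.0% with that minimum. Without *Dclk1* 21 peaks were left and without *Ptgs1* 20, with 66.7% and 70.0% opened. The alternatives by nearest edge and merging within 100 bp moved no result of the gene lists past its interval or past 1.5 times. Neither did a promoter of 3 kb, which was tried for the promoter peaks of the 8 genes only. Merging within 100 bp gave 50.4% over all listed peaks. The last 3 (leaving out genes, merging within 1 kb, the comprehensive annotation) were chosen after the data were seen; merging within 1 kb gave 27 peaks and 63.0% opened.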
